A study of Homo sapiens with 8 samples.

Results

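The genes that make cholesterol and fatty acids, with those that control them, were followed in renal carcinoma cells given the inflammatory cytokine IL1β. The group was set by gene symbol from the known role of each gene, at a time when earlier results of these data were known. It held 32 of the 59023 genes in the table. All 32 passed the filter on low counts and were fitted together with every other gene that did, 15062 in all. The cells were A498, a long-established human line from a clear cell carcinoma of the kidney, with mutated VHL, grown in RPMI medium with serum. Cultures were either untreated (replicates 1 to 4) or given IL1β (30 ng/ml) during the last 4 h before harvest (replicates 5 to 8), giving 4 libraries in each group. All libraries come from this single line and a single dose and time. The study describes 4 experimental pairs, but the labels do not say which untreated and treated cultures belong together, so the p-values measure the spread between these libraries.

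Cells build cholesterol from acetyl-CoA through mevalonate, squalene and lanosterol, and build fatty acids from the same precursor. The enzymes of both routes are switched on by the SREBP transcription factors, which lie in the membrane of the endoplasmic reticulum until the escort protein SCAP carries them to the Golgi for cleavage. When sterols are plentiful, the INSIG proteins hold SCAP back, and INSIG1 is itself a target of SREBP. Clear cell carcinoma owes its name to cells filled with stored neutral lipid and glycogen.

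Libraries held 16610473 to 27040505 counts in the untreated group and 15409093 to 24000727 in the IL1β group, and the smallest count of any member in any library was 76 (MVK). Levels are given as CPM (counts per 1000000) after TMM scaling, which evens out differences in library composition, and 1 count is worth 0.037 to 0.0649 CPM before that scaling. On the first principal component of all genes, with 42.8% of the variance, untreated replicate 1 (-59.5) and IL1β replicate 5 (-102) were far from the remaining libraries (18.8 to 37.2). Results that rest on these libraries are therefore given with and without them. The treatment was visible in NFKBIZ, an inducible NF-κB cofactor, at 9.13 to 27.5 CPM untreated and 115 to 184 CPM with IL1β. The epithelial keratin KRT8 was at 638 to 1306 CPM and KRT18 at 341 to 602 CPM. The renal lineage factor PAX8 was at 107 to 220 CPM untreated and 365 to 519 CPM with IL1β. Of the same marker list, PAX2 (5.66 to 11.7 CPM) and KRT19 (5.14 to 11.9 CPM) were low. VIM, also listed, was at 3313 to 4829 CPM, above both KRT8 and KRT18. PTPRC, CD68, CD14, PECAM1 and CDH5, markers of leukocytes and endothelium, did not exceed 1.03 CPM. The fibroblast genes COL1A1 (43.2 to 680 CPM) and DCN (0.277 to 41.7 CPM) were highest in untreated replicate 4, and their part in the results was not tested.

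INSIG1, which encodes the endoplasmic reticulum protein that retains the SCAP and SREBP complex, was the only member that rose with IL1β, by about 3-fold, and no member fell. The other members, including the genes of every enzymatic step measured, did not pass the test. The words rose and fell are kept for genes whose p, adjusted over all 15062 genes tested, was under 0.05 in edgeR's quasi-likelihood test. Of all genes tested 0.929% rose and 0.0598% fell by this rule, against 1 and 0 of 32 members. At an unadjusted p under 0.05, 2 members were higher (INSIG1 and MVD) and 1 was lower (SC5D), where 6.23% and 4.55% of all genes were, so that the share of members was near the background in both directions. The study's own thresholds, nominal p under 0.01 and log2 fold change past 1 in size, were met by INSIG1 and MVD upward and by no member downward, against 2.12% and 0.471% of all genes.

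**Figure D1:**
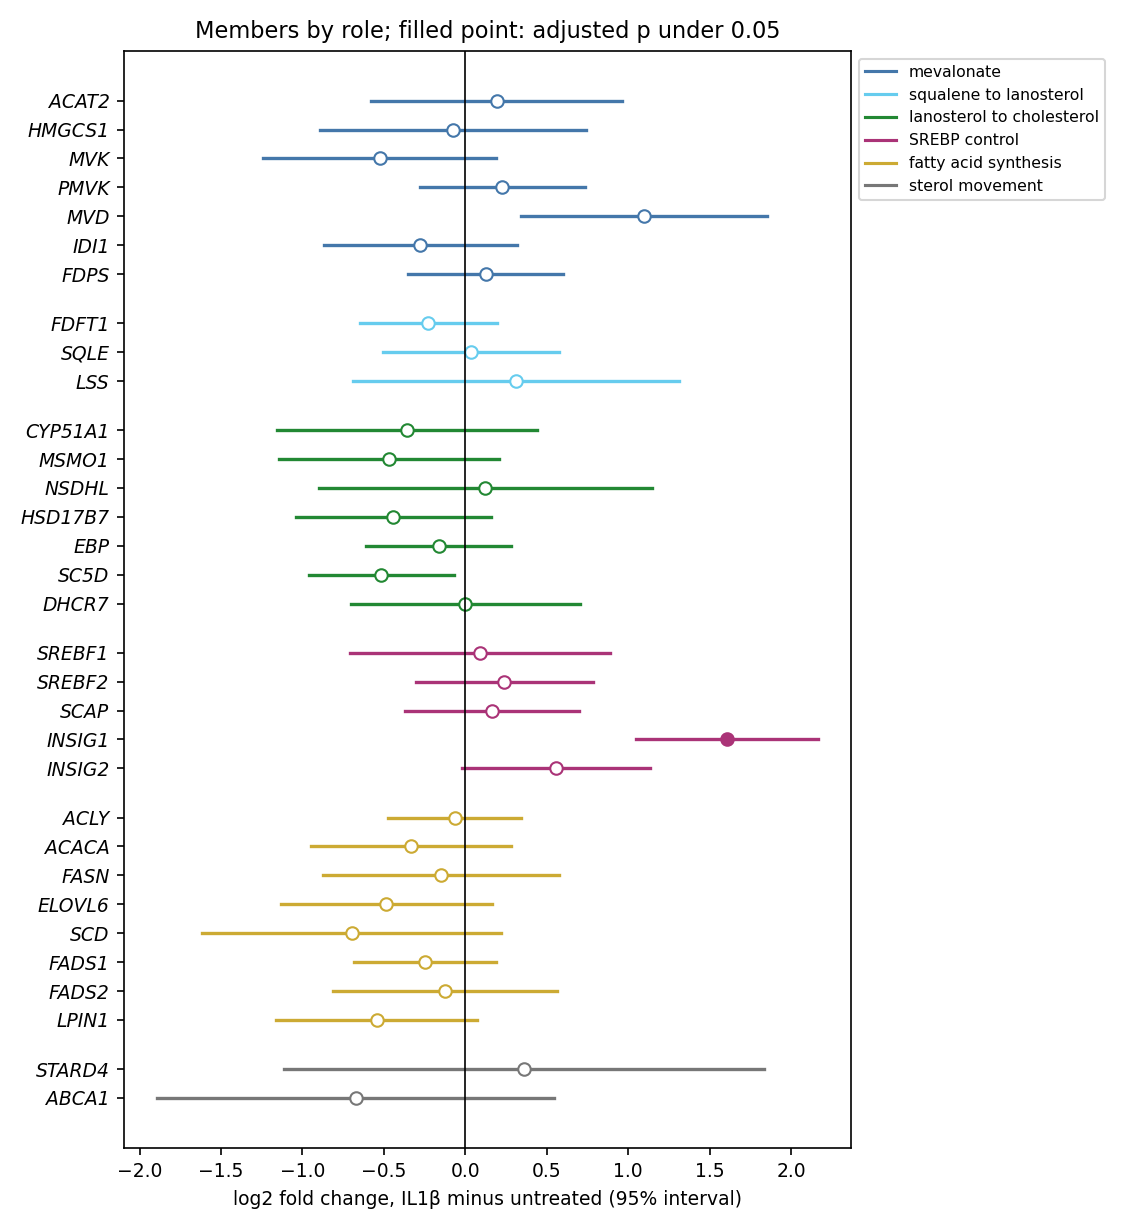
Log2 fold change (IL1β minus untreated, x axis) of the 32 members with its 95% confidence interval, ordered and coloured by role, where a filled point marks an adjusted p under 0.05. INSIG1 is the only filled point, at 1.61, and the 8 fatty acid synthesis genes all lie below 0 with intervals that include 0.

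INSIG1 lies on chromosome 7 (hg38, positions 155297776 to 155310235, plus strand), and no other annotated gene among those counted here overlaps it. Its level was 291, 177, 149 and 218 CPM in untreated replicates 1 to 4 and 663, 560, 494 and 819 CPM in IL1β replicates 5 to 8. The lowest treated library was well above the highest untreated one, which was replicate 1. The means were 208 ± 61.7 and 634 ± 142 CPM (SD, n = 4 each). On the log2 scale the difference was 1.61 with a standard error of 0.25 and a 95% interval of 1.05 to 2.16 (adjusted p = 0.0208 by edgeR). By exact permutation of the libraries, two-sided, p was 0.0286, the smallest that 4 against 4 libraries allow. In RNA from whole cultures, a change in some of the cells and a change in all of them cannot be told apart.

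The INSIG1 difference kept its direction when libraries were left out, but its call was lost in 5 of 8 cases. Without untreated replicate 1 and IL1β replicate 5 the log2 fold change was 1.80 (adjusted p = 0.0046 by edgeR). When 1 library at a time was left out it ranged from 1.46 to 1.81, and the adjusted p from 0.0189 to 0.0920. The call was lost without untreated replicate 2 (0.0920), 3 (0.0594) or 4 (0.0506) and without IL1β replicate 6 (0.0603) or 8 (0.0717).

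**Figure D2:**
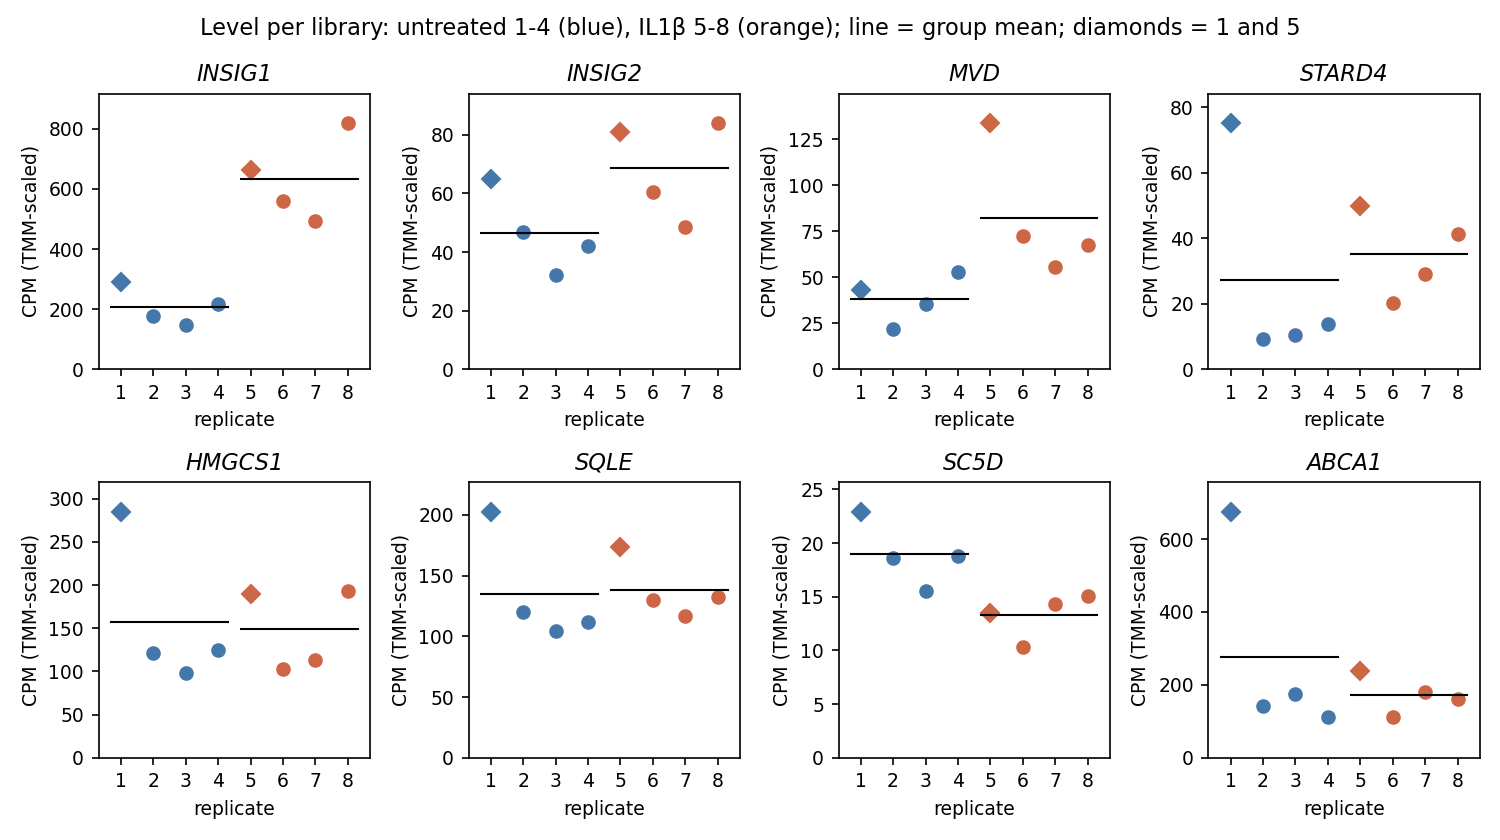
TMM-scaled CPM (y axis, from 0) of 8 members in each library (x axis, replicates 1 to 4 untreated in blue and 5 to 8 with IL1β in orange), with lines at the group means and diamonds for replicates 1 and 5. The INSIG1 points of the groups do not overlap, while HMGCS1, SQLE, STARD4 and ABCA1 have their highest point in untreated replicate 1.

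The promoters of INSIG1 and of 3 members compared with it here are shown for orientation: its paralogue INSIG2, the mevalonate enzyme gene MVD, whose groups did not overlap, and STARD4, whose result changed without replicates 1 and 5. They are RefSeq sequences of GRCh38.p14 from 250 bases before to 50 bases after the start, on the gene's own strand, at chr7:155297628-155297927 (INSIG1, plus), chr2:118088221-118088520 (INSIG2, plus), chr16:88663042-88663341 (MVD, minus) and chr5:111512486-111512785 (STARD4, minus). Capitals mark the E-box CACGTG and the CCAAT box, which reads ATTGG when it lies on the other strand.
INSIG1: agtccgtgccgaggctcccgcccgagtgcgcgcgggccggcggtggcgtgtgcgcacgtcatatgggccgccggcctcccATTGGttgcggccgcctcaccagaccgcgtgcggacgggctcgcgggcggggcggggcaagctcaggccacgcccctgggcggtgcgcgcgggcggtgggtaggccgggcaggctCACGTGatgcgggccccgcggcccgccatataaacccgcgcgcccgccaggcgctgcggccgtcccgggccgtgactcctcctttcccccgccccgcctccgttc
INSIG2: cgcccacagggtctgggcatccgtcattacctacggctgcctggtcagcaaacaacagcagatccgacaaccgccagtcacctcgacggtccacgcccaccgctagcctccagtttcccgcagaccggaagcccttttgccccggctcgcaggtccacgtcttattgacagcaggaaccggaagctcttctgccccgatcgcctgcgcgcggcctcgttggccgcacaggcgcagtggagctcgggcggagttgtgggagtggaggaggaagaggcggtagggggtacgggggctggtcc
MVD: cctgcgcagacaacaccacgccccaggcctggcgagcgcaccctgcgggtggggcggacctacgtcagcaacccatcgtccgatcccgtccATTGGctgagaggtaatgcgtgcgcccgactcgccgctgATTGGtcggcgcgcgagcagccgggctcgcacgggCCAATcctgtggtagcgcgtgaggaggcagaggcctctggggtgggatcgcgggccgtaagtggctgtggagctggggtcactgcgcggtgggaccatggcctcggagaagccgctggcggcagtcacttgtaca
STARD4: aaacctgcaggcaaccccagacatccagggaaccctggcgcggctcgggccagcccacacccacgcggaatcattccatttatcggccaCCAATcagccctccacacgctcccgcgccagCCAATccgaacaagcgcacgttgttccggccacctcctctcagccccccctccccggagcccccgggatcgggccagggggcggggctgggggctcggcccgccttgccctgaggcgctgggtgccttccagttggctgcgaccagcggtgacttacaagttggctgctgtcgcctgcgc
The INSIG1 window held 1 E-box, beginning 55 bases before the start, and 1 CCAAT box, the MVD window held 3 CCAAT boxes and the STARD4 window 2, and the INSIG2 window had neither motif.

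A promoter entry was found for 28 of the 32 members, all but ACAT2, FDFT1, SQLE and FASN. The motifs were searched on both strands, and a promoter was counted once however many matches it held. The E-box CACGTG, a palindrome bound by SREBP among many other factors, was in 5 of the 28 (LSS, SC5D, SCAP, INSIG1 and ABCA1) and in 7.26% of all 35116 promoters. CCAAT was in 16 of the 28 and in 34.6% of all, and the GC box GGGCGG, the motif of SP1, was in 26 of the 28 and in 45.0% of all. The sterol response element in the strict form TCACNCCAC was in 1 of the 28, that of SREBF2, and in 1.13% of all. The κB consensus was matched in MVK, SREBF1 and SREBF2 and in 5.91% of all promoters, and in MVK and SREBF2 this match overlapped a GC box. A match is only a run of letters in this window, and binding was not measured.

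The sterol response element of SREBF2 is printed because this gene encodes the SREBP that mainly drives sterol synthesis and its promoter was the only one of the 28 with a match. The stretch lies at chr22:41832962-41832990 (GRCh38.p14, plus strand), with the element in capitals.
SREBF2: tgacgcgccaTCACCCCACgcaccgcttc

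In the group of SREBP control genes all 5 log2 fold changes were above 0 (median 0.24), and only INSIG1 rose. INSIG2, the paralogue that also retains SCAP, was at 65.0, 46.9, 32.2 and 42.1 CPM untreated and at 81.1, 60.5, 48.5 and 84.0 CPM with IL1β. These groups overlapped only because of untreated replicate 1. The log2 fold change was 0.56 with a 95% interval of -0.02 to 1.13 (adjusted p = 0.488 by edgeR), and without replicates 1 and 5 it was 0.69 (adjusted p = 0.200). SREBF1, which encodes the factor that mainly drives fatty acid genes, was at 131 ± 54.6 CPM untreated and 139 ± 41.9 CPM with IL1β. SREBF2 was at 89.4 ± 24.8 and 106 ± 22.6 CPM, and SCAP at 34.6 ± 11.5 and 38.7 ± 4.13 CPM (SD, n = 4 each). None of these 3 differences exceeded the spread between libraries, with the 95% intervals of their log2 fold changes together spanning -0.71 to 0.89.

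INSIG1 was also set against every other member counted in the same library, a description chosen after the levels had been seen and therefore given without a test. Of the 31 ratios, 25 were higher in each of the 4 treated libraries than in any untreated one. The other 6 overlapped, those to ACAT2, MVD, FDPS, LSS, SCAP and STARD4. All 31 share INSIG1, whose own groups did not overlap, so their number adds no separate evidence. The ratio to HMGCS1 was 1.02, 1.46, 1.51 and 1.75 in untreated replicates 1 to 4 and 3.51, 5.48, 4.37 and 4.25 in IL1β replicates 5 to 8. The ratio to the paralogue INSIG2 was 4.47, 3.77, 4.61 and 5.17 untreated and 8.18, 9.26, 10.2 and 9.75 with IL1β. Both were higher in all treated libraries, replicates 1 and 5 included. The ratio to MVD was 6.74, 8.06, 4.18 and 4.10 untreated and 4.96, 7.72, 8.90 and 12.1 with IL1β, and that to STARD4 was 3.86, 18.9, 13.98 and 15.8 untreated and 13.3, 27.8, 17.03 and 19.9 with IL1β. These ratios overlapped between the groups. The difference in mean log2 ratio was smallest against MVD (0.54, SE 0.36) and largest against SCD (2.25).

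**Figure D3:**
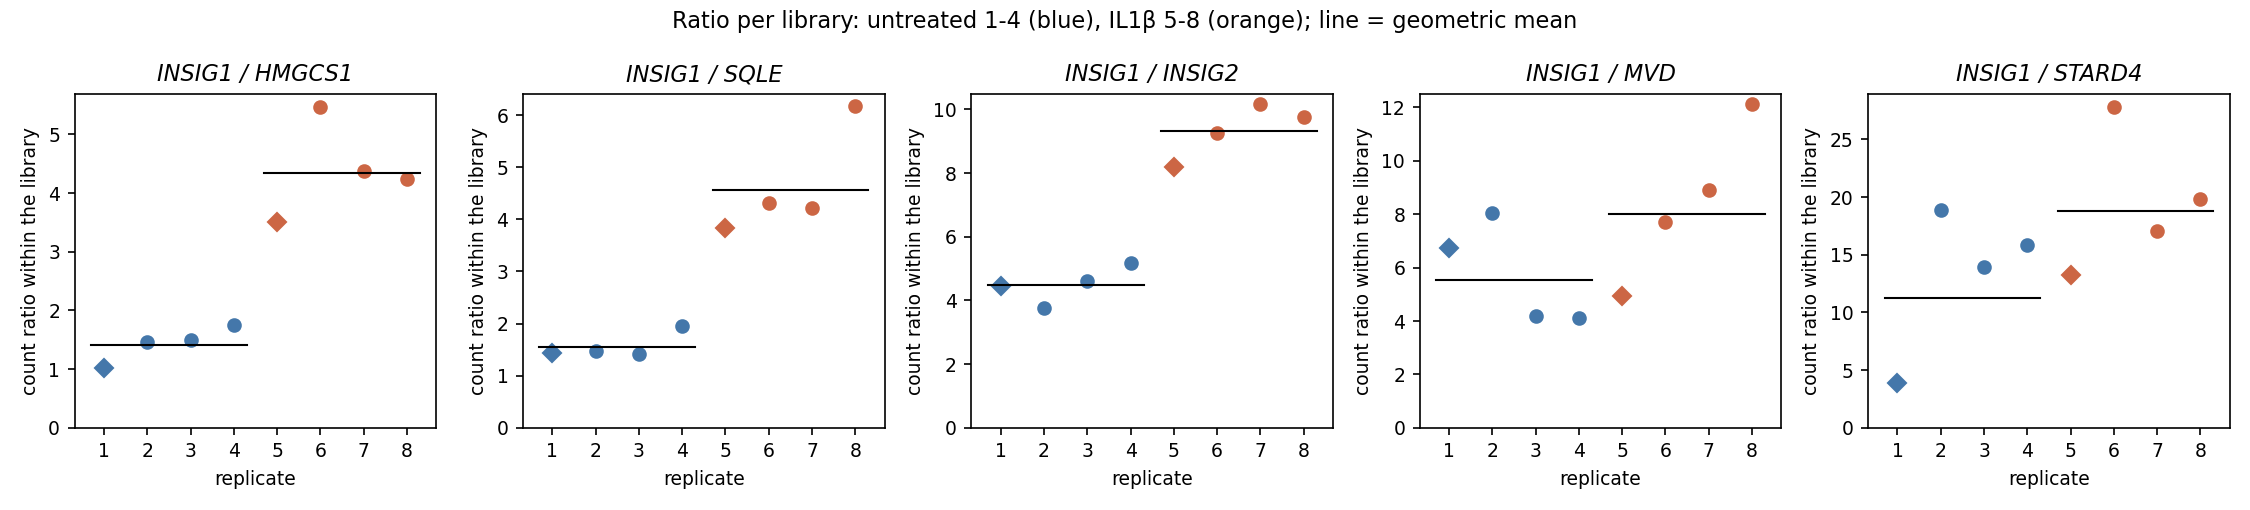
Ratio of INSIG1 counts to HMGCS1, SQLE, INSIG2, MVD and STARD4 counts (y axes, from 0) in each library (x axis, replicates 1 to 4 untreated in blue, 5 to 8 with IL1β in orange, diamonds for replicates 1 and 5), with lines at the geometric means. Every IL1β point lies above every untreated point for HMGCS1, SQLE and INSIG2, whereas the groups overlap for MVD and STARD4.

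The 7 genes of the mevalonate steps had log2 fold changes from -0.53 to 1.10 with a median of 0.13, 4 above and 3 below 0, and none passed the test. MVD, the decarboxylase that forms isopentenyl diphosphate, had the largest. It was at 43.1, 21.9, 35.6 and 53.1 CPM untreated and at 134, 72.5, 55.5 and 67.6 CPM with IL1β. The groups did not overlap, although treated replicate 7 lay just above untreated replicate 4, and treated replicate 5 was 2.05 times the mean of the other treated libraries. The log2 fold change was 1.10 with a standard error of 0.34 (unadjusted p = 0.00906 and adjusted p = 0.228 by edgeR). It was 0.76 without IL1β replicate 5 and 0.84 without both replicates 1 and 5, below the fold the study asks for. With 1 library left out it met the study's thresholds only without untreated replicate 4 or IL1β replicate 7.

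Over all 8 libraries, groups that do not overlap were seen upward in 2 members (INSIG1 and MVD) and downward in 1 (SC5D), where 4.6% and 3.41% of all genes showed this. PMVK, the kinase before MVD in the route, had the highest level per kilobase of this group and was at 50.5, 43.3, 67.2 and 50.9 CPM untreated and at 86.1, 53.8, 61.4 and 47.1 CPM with IL1β, so the groups overlapped. HMGCS1, which condenses acetoacetyl-CoA into HMG-CoA, was at 285, 121, 98.8 and 124 CPM untreated and at 189, 102, 113 and 193 CPM with IL1β. Its untreated level was high in replicate 1 alone, and the log2 fold change of -0.08 became 0.26 without replicates 1 and 5, with neither past the test. The others of the group overlapped too, with log2 fold changes of -0.53 for mevalonate kinase MVK, -0.28 for the isomerase IDI1 and 0.13 for the farnesyl diphosphate synthase FDPS. ACAT2, the cytosolic thiolase that begins the route, had 0.19, but it lies opposite SOD2 and TCP1 on the other strand. SOD2, a manganese superoxide dismutase, went from 534 to 3187 CPM, and since the strand setting of the counting is not given, reads shared with it cannot be told apart from those of ACAT2.

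The 3 genes from squalene to lanosterol did not differ beyond the spread between libraries. Squalene synthase FDFT1 had the smallest p of them and was at 59.1, 67.3, 91.3 and 87.4 CPM untreated and at 56.6, 62.0, 71.8 and 70.4 CPM with IL1β. The epoxidase SQLE, the most abundant of the 3 per kilobase, was at 203, 120, 105 and 112 CPM untreated and at 174, 130, 117 and 133 CPM with IL1β. In both groups the highest SQLE level was that of the library standing apart, replicate 1 or 5. Its log2 fold change was 0.04 with a 95% interval of -0.51 to 0.58. LSS, the cyclase that forms lanosterol, varied more than 3-fold within the untreated libraries (22.2 to 78.1 CPM) and had a log2 fold change of 0.31 with an interval of -0.69 to 1.31.

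Of the 7 genes that turn lanosterol into cholesterol, 6 had log2 fold changes below 0 (median -0.36), and none passed the test. SC5D, the desaturase of the last steps, was at 22.9, 18.6, 15.5 and 18.8 CPM untreated and at 13.4, 10.3, 14.3 and 15.1 CPM with IL1β. Every treated library lay below every untreated one, by a small margin between IL1β replicate 8 and untreated replicate 3. The log2 fold change was -0.52 with a standard error of 0.20 (unadjusted p = 0.0279 and adjusted p = 0.371 by edgeR), and -0.40 without replicates 1 and 5. MSMO1, a methyl sterol oxidase and one of the more abundant genes of this group per kilobase, was at 127, 58.6, 61.2 and 57.0 CPM untreated and at 71.5, 39.1, 52.7 and 56.6 CPM with IL1β. Its lower mean with IL1β, 55.0 against 76.0 CPM, came with overlapping groups and a high untreated replicate 1. Without replicates 1 and 5 every treated library lay below every untreated one, though 56.6 CPM (replicate 8) was close to 57.0 CPM (replicate 4). The log2 fold change was -0.47 over all libraries and -0.23 without replicates 1 and 5 (adjusted p = 0.641 by edgeR).

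NSDHL, which acts on the same methyl groups, was high in the libraries standing apart, at 90.1 CPM in untreated replicate 1 and 113 CPM in IL1β replicate 5 against 34.4 to 40.4 CPM in the other 6 libraries. Its log2 fold change was 0.12 over all libraries and -0.04 without these 2. The lanosterol demethylase CYP51A1 (log2 fold change -0.36), the ketosteroid reductase HSD17B7 (-0.44), the isomerase EBP (-0.16) and DHCR7, which completes cholesterol (0.00), had overlapping groups as well. Without replicates 1 and 5, HSD17B7 (-0.36) and EBP (-0.27) were lower in every treated library, and neither passed the test. Summed over all 17 enzymes of the sterol route, the level was 1337, 867, 995 and 1065 CPM untreated and 1258, 914, 967 and 1154 CPM with IL1β. The 2 ranges lay over each other, with untreated replicates 1 and 2 at their ends.

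The 8 genes of fatty acid synthesis all had log2 fold changes below 0, from -0.70 to -0.07 with a median of -0.29, yet none passed the test and every 95% interval included 0. Of all genes tested 52.2% were below 0 and 47.8% above, and of all 32 members 19 and 13. SCD, which desaturates stearate to oleate and was the most abundant member per kilobase without IL1β, was at 1823, 494, 948 and 787 CPM untreated and at 758, 327, 576 and 835 CPM with IL1β. Untreated replicate 1 was again far above the rest, and without replicates 1 and 5 the log2 fold change of -0.70 became -0.34. LPIN1, a phosphatidate phosphatase and SREBP target, had the smallest p of these genes and was at 37.2, 40.1, 58.7 and 43.0 CPM untreated and at 16.5, 30.2, 37.8 and 38.1 CPM with IL1β. Its log2 fold change was -0.54 with a standard error of 0.28 (adjusted p = 0.537 by edgeR), and only IL1β replicates 7 and 8 reached into the untreated range. Without replicates 1 and 5 every treated library lay below every untreated one, with a log2 fold change of -0.40 (adjusted p = 0.419 by edgeR).

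IL1β replicate 5 was the lowest treated library in 7 of these 8 genes, all but SCD, a place it took in 40.9% of all genes tested. ACLY, which makes cytosolic acetyl-CoA from citrate, was at 648 ± 63.2 CPM untreated and 619 ± 123 CPM with IL1β (SD, n = 4 each). ACACA, the acetyl-CoA carboxylase of lipid synthesis, was at 88.4 ± 15.9 and 70.2 ± 25.9 CPM, and the fatty acid synthase FASN at 195 ± 85.9 and 176 ± 44.3 CPM. The elongase ELOVL6 was at 61.9 ± 14.5 and 44.2 ± 15.3 CPM. For these 4 genes the difference between the groups was smaller than the larger of the SDs, except in ELOVL6, where the 95% interval of the log2 fold change was -1.13 to 0.16. The desaturases FADS1 (log2 fold change -0.25) and FADS2 (-0.12) overlap each other on opposite strands, and FEN1 lies within FADS2.

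The genes of sterol movement depended most on the libraries standing apart. STARD4, a carrier of cholesterol between membranes inside the cell, was at 75.2, 9.37, 10.6 and 13.7 CPM untreated and at 49.96, 20.2, 29.0 and 41.3 CPM with IL1β. Untreated replicate 1 was 6.69 times the mean of the other untreated libraries and above every treated one, while untreated replicates 2 to 4 were below all treated libraries. IL1β replicate 5 was 0.664 times untreated replicate 1, though the labels do not pair these single libraries. Over all 8 libraries the log2 fold change was 0.36 (adjusted p = 0.909 by edgeR). Without replicates 1 and 5 the means were 11.3 ± 2.26 and 30.1 ± 10.6 CPM (SD, n = 3 each), the log2 fold change was 1.44 and the adjusted p 0.0315 by edgeR, so STARD4 passed there. In that setting 2.5% of all genes rose and 0.357% fell, more than over all 8 libraries. Without untreated replicate 1 alone the log2 fold change was 1.64 and the adjusted p 0.0689 by edgeR, and STARD4 passed in 1 of the 18 alternatives. With 3 against 3 libraries an exact permutation test cannot go below p = 0.1, the value found. STARD4 also overlaps STARD4-AS1 on the other strand.

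ABCA1, which exports cholesterol to lipoproteins and is a target of the liver X receptors, was at 675, 141, 175 and 112 CPM untreated and at 238, 112, 181 and 161 CPM with IL1β. Untreated replicate 1 was 4.73 times the mean of the other untreated libraries, and the remaining libraries of both groups lay over each other. The log2 fold change was -0.67 over all libraries (adjusted p = 0.731 by edgeR) and 0.10 without replicates 1 and 5.

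**Figure D4:**
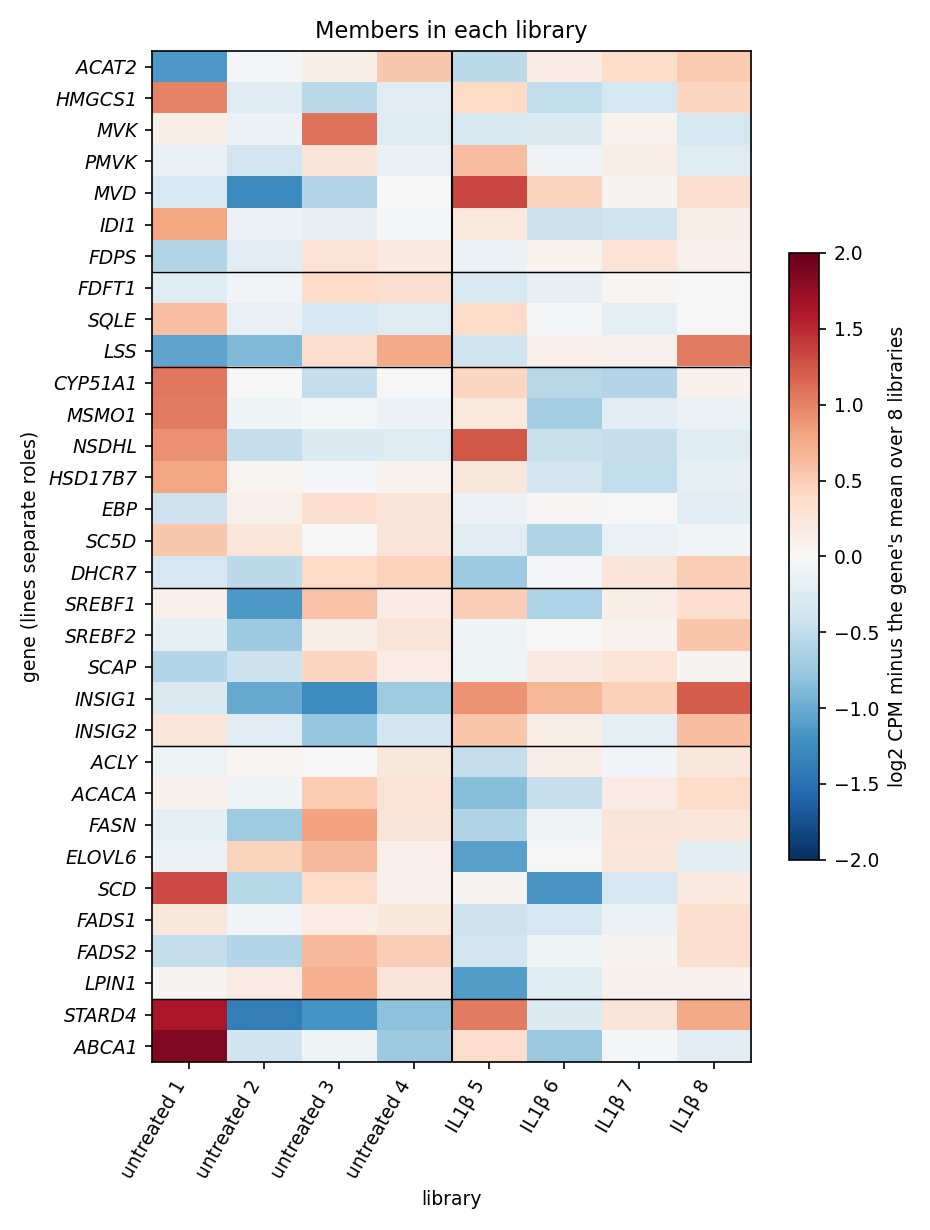
Log2 CPM of each member (rows, grouped by role) in each library (columns) minus the mean of the gene over the 8 libraries, red above and blue below on a scale of -2 to 2. The INSIG1 row changes from blue to red between the groups, and untreated replicate 1 is the reddest column for HMGCS1, MSMO1, STARD4 and ABCA1.

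Untreated replicate 1 was the highest untreated library in 14 members and the lowest in 9, where it held these places in 33.6% and 31.0% of all genes tested. IL1β replicate 5 was the highest treated library in 11 members and the lowest in 14, against 39.7% and 40.9% of all genes. Both stood above their own group in IDI1, SQLE, CYP51A1, MSMO1, NSDHL, HSD17B7, STARD4 and ABCA1, and both below it in ACAT2, FDPS, FDFT1, LSS, SCAP, ACLY, ELOVL6 and LPIN1. Genes of 1 biosynthetic route were thus found on both sides within these libraries. How many of all genes had both libraries on the same side is not given here. Whether this split is particular to the members therefore cannot be told. INSIG1 was 2.28 times higher in IL1β replicate 5 than in untreated replicate 1, single libraries that the labels do not pair. It was 3.45 times higher in the mean of IL1β replicates 6 to 8 (624 ± 172 CPM) than of untreated replicates 2 to 4 (181 ± 34.8 CPM). Between these same libraries 4 members were higher in every treated one (MVD, INSIG1, INSIG2 and STARD4). Another 5 were lower in every treated one (MSMO1, HSD17B7, EBP, SC5D and LPIN1), and 23 overlapped. Of these, only INSIG1 and STARD4 passed the test there.

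Levels were also taken per kilobase of annotated exon, with the exons of all transcripts of a gene joined. Ranks between genes therefore depend on the annotated transcripts as well. Untreated levels spread from 193 ± 109 CPM for SCD and 124 ± 12.1 for ACLY down to 0.960 ± 0.458 for MVK (SD, n = 4 each). INSIG1 at 57.1 ± 16.9 and PMVK at 52.9 ± 10.1 lay between them. SCD and ACLY overlapped, as did INSIG1 and PMVK, while the highest INSIG1 value (79.6) stayed below the lowest of ACLY (112). With IL1β, INSIG1 had the highest mean, at 174 ± 38.8 CPM per kilobase, before SCD at 119 ± 43.1 and ACLY at 119 ± 23.6. The lowest INSIG1 value, 135, lay within the ranges of both, so these 3 neighbours were not separated in every library. By mean level MVD was at rank 22 of the 32 untreated and 12 with IL1β, and at 23 and 15 without replicates 1 and 5. ABCA1 was at rank 9 untreated and 16 with IL1β, but at 16 and 18 without these libraries, with means of 12.6 and 13.3 CPM per kilobase.

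A further 39 genes of the same pathways were listed by role, and of the 37 tested none rose or fell. Their median log2 fold change was -0.06, against -0.10 for the members and -0.02 for all genes. ELOVL7, an elongase of long-chain fatty acids, came closest, at 32.8, 26.3, 14.0 and 27.8 CPM untreated and at 59.2, 68.3, 53.8 and 101 CPM with IL1β. The groups did not overlap, and the log2 fold change of 1.48 had a standard error of 0.30 (adjusted p = 0.0543 by edgeR). It passed at 0.0490 without IL1β replicate 5 and at 0.0225 without replicates 1 and 5.

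NR1H2, the liver X receptor beta gene, was higher in every treated library (60.9 ± 15.1 and 92.9 ± 17.5 CPM, adjusted p = 0.327 by edgeR). GPAM, which starts glycerolipid synthesis, was lower in every treated library (17.3 ± 5.02 and 9.73 ± 2.07 CPM, adjusted p = 0.227), as was ACACB, the mitochondrial carboxylase (9.004 ± 2.67 and 5.80 ± 1.29 CPM, adjusted p = 0.451). Among the genes of sterol storage and transport, the smallest p was that of TMEM97 (log2 fold change -0.41), whose groups overlapped. CYP27A1 was below the filter at 1 to 27 counts per library, and CH25H, a cholesterol hydroxylase gene, had no count in any library, which allows up to 0.0186 CPM over the 8 libraries, by counting error alone.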

How the data were processed

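Total RNA of A498 cultures was made into stranded libraries and sequenced. Per the labels and the methods of the study, trimmed reads were aligned by the authors with STAR 2.5.3a (hg38), featureCounts made the gene counts, and these raw counts were deposited. For featureCounts, neither version nor annotation nor strand setting is given in the sources used here. Of 59050 entries, 27 carried dates in place of symbols (0.197% to 0.236% of the counts) and were left out. GENCODE 44 gave coordinates, overlaps and exon lengths for the members.

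The condition was tested with edgeR 4.0.16 in R 4.3.3 (filterByExpr, TMM, glmQLFit, glmQLFTest) on all genes, with Benjamini-Hochberg adjustment. The script was tested on simulated counts. Alternatives were RLE, upper-quartile and library size scaling, no filter, a filter at 1 CPM in 4 libraries, DESeq2 1.42.0, limma 3.58.1 (voom and trend), thinning, and libraries left out. Members and lists were chosen with earlier results of these data known. All members are named. Values in every library are given where a member passed or had an unadjusted p under 0.05. They are also given where groups did not overlap over all 8 libraries, or for the smallest p or highest level per kilobase in a role. Values of INSIG2, HMGCS1 and STARD4 in every library were added after they had been seen. Related genes are named where their groups did not overlap, and otherwise by the smallest p of the list, except for 1 list whose gene is not reported here.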

Additional observations from a re-analysis of the deposited data

Results flagged for a closer look

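In 11 of the 78 groups of 4 libraries examined for the members and the named related genes, 1 library lay far from the other 3 by Dixon's criterion. Chance exceeds this criterion in about 1 of 20 independent groups, and genes of the same libraries are not independent. The share of all genes flagged this way was not computed. In 8 of the 11 groups the library was untreated replicate 1, high each time. Untreated replicate 1 was also the highest untreated library in 33.6% of all genes tested. It was at 285 CPM for HMGCS1 (others at most 124), 101 for IDI1 (56.8), 203 for SQLE (120), 127 for MSMO1 (61.2), 90.1 for NSDHL (39.9), 14.8 for HSD17B7 (8.97), 75.2 for STARD4 (13.7) and 675 for ABCA1 (175). In IL1β replicate 5, NSDHL was at 113 CPM against at most 40.4 in the other treated libraries and the related gene NR1H2 at 119 CPM against at most 86.4. MVK was at 7.29 CPM in IL1β replicate 7 against at most 5.75. INSIG1, MVD and SC5D were not among these genes.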

How the results depend on the processing

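INSIG1 kept its direction in all 18 alternatives and lost its call in 5, each with 1 library left out (number of members that rose, 0 to 1). With replicates 1 and 5 both left out, 2 members rose, INSIG1 and STARD4 (log2 fold change 1.44), where 378 of 15127 genes rose. Members past the study's thresholds numbered 1, INSIG1, under upper-quartile scaling and library size alone, and 1 to 2 with 1 library left out. Of the related genes 1, ELOVL7, rose without the filter, with DESeq2, limma-voom and limma-trend, and without replicates 1 and 5, and 0 to 1 with 1 library left out. Library size alone moved the median of all genes from -0.02 to -0.18 and the members' split from 13 above and 19 below 0 to 9 and 23. Over all genes 38 to 423 rose and 0 to 109 fell.

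A change of sign was seen in 14 members, all of which missed the threshold in every alternative. Without replicates 1 and 5 the log2 fold change was 0.26 for HMGCS1, -0.037 for NSDHL, 0.092 for DHCR7, -0.020 for SREBF1, 0.030 for ACLY and 0.10 for ABCA1. By library size alone it was -0.030 for FDPS, -0.12 for SQLE, -0.057 for NSDHL and -0.074 for SREBF1, and by upper quartile -0.0425 for SQLE. DHCR7 was at 0.0058 without the filter, 0.0041 with voom and 0.026 when thinned. With 1 library left out the ranges were -0.050 to 0.43 for ACAT2, -0.24 to 0.38 for HMGCS1, -0.40 to 0.0051 for IDI1, -0.019 to 0.25 for FDPS, -0.10 to 0.30 for SQLE, -0.047 to 0.69 for LSS, -0.59 to 0.045 for CYP51A1, -0.49 to 0.55 for NSDHL, -0.18 to 0.19 for DHCR7, -0.16 to 0.33 for SREBF1, -0.15 to 0.055 for ACLY, -0.35 to 0.16 for FASN, -0.30 to 0.11 for FADS2 and -0.93 to 0.28 for ABCA1. The cause was not tested. No paired analysis was possible because the labels do not say which untreated and treated cultures form a pair. No member had fewer than 76 counts in a library, and the 4 libraries of a group limit the precision.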
